A study of Bos grunniens with 9 samples.

Results

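The genes described here are 49 genes of Wnt signalling, out of 21652 genes in the deposited tables of a ribosome profiling study of the yak ovary. They were chosen by symbol: Wnt ligands, R-spondins, frizzled and co-receptor genes, secreted antagonists, and genes of the signal in the cytoplasm and nucleus and of its feedback. A symbol with several identifiers was read at the one with the highest mean count, which concerned 1 gene, ROR2. All 49 were found, and 46 passed the filter on low counts and were tested among 13936 genes. The 3 that did not pass were RSPO1, LGR5 and RNF43.

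Ribosome profiling sequences the mRNA stretches that ribosomes cover, so the number of these footprints on a gene depends on its mRNA amount as well as on how much that mRNA is translated. Ovaries of adult yaks (Bos grunniens) aged 6 years were sampled in anestrus (April), in estrus (August) and in pregnancy (December), with 3 libraries per stage. No treatment or genotype is given in the labels, and every library came from whole frozen tissue of the ipsilateral ovary. Each stage was sampled in a month of its own, so stage and season cannot be told apart. The labels speak of 3 yaks and call the replicates biological, but give no animal for a replicate. Whether libraries of different stages share an animal is therefore not known.

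Wnt ligands are secreted proteins that bind frizzled receptors together with LRP5 or LRP6, upon which Dishevelled proteins halt the complex of AXIN, APC and GSK3B that marks beta-catenin (CTNNB1) for breakdown, and beta-catenin then acts with TCF and LEF factors on target genes. R-spondins, bound to LGR receptors, remove the ubiquitin ligases ZNRF3 and RNF43, which otherwise clear frizzled receptors, while SFRP and DKK proteins and WIF1 act against the signal outside the cell. In the mouse, Wnt4 and Rspo1 are needed for the fetal ovary to develop, and Wnt4 also serves the growth of follicles in the adult.

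Depth ran from 1.47 M counts in pregnancy replicate 3 to 28.94 M in anestrus replicate 2, and every anestrus library was deeper than every other library (M, 1e6). A level of 3 counts, taken as the floor, was 0.104 to 2.04 counts per M counts (CPM) by library. In a principal component analysis, pregnancy replicate 3 stood apart on the first component (30.3% of the variance) and anestrus replicate 2 on the second (18.2%). Stromal markers summed to 44970 to 92250 CPM and granulosa markers to 726 to 3508 CPM over the 9 libraries, with all 7 and all 8 listed genes found, while oocyte markers summed to 1.0 to 18.3 CPM, and GDF9, BMP15, DDX4 and FIGLA were at 0 in some libraries. The collagen genes COL1A1 and COL1A2 carried most of the stromal sums. The tissue is bulk ovary, in which fewer cells of a type and less RNA per cell cannot be told apart.

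Levels of different genes were compared by FPKM (fragments scaled by gene length and library size, as deposited by the authors), and levels of one gene between libraries by normalised CPM. Per length, 5 of the 8 secreted antagonists stood above every ligand. The highest mean FPKM over the 9 libraries among the 49 genes was that of CTNNB1 at 275, followed by the antagonists DKK3 at 265, SFRP2 at 224, SFRP4 at 204 and FRZB at 177. SFRP1 was at 54.0, above WNT5A at 25.1 and WNT4 at 15.2, the leading ligands, while the antagonists DKK2 at 18.1, DKK1 at 4.96 and WIF1 at 0.777 lay within or below the range of the ligands. DKK3 is classed with the Dickkopf proteins by sequence, although its action on Wnt signalling is less settled than that of DKK1. For sums between libraries, FPKM was divided by the library's TMM scaling factor. Summed over the 8 antagonists, it was 1051 ± 176 in anestrus, 1001 ± 396 in estrus and 802 ± 38.2 in pregnancy (SD, n = 3 each). Summed over the 8 ligands, it was 48.3, 90.9 and 64.5 in anestrus, 64.7, 54.9 and 52.4 in estrus, and 77.1, 101 and 82.5 in pregnancy. The pregnancy libraries were above all estrus libraries, and anestrus replicate 2 lay within their range. Without that division, anestrus replicate 2 was at 79.6, against 80.1, 100 and 94.4 in pregnancy, just below all 3. These sums describe the libraries and were not tested.

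**Figure D1:**
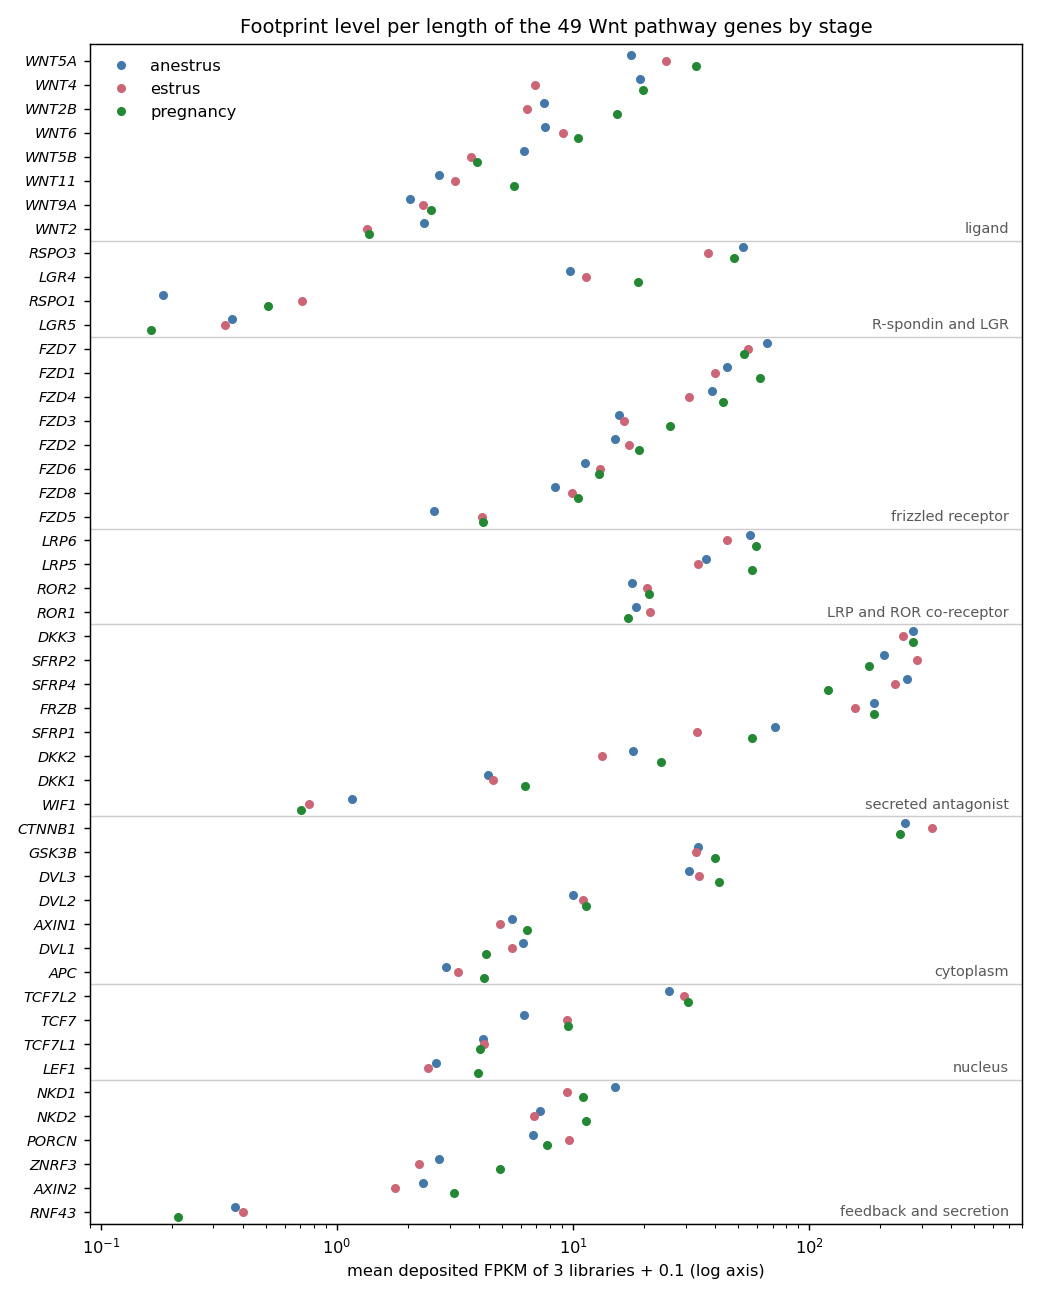
Mean deposited FPKM plus 0.1 (log axis) of each of the 49 genes in anestrus, estrus and pregnancy (3 libraries each), grouped by role, with no TMM scaling. CTNNB1 and the antagonists DKK3, SFRP2, SFRP4 and FRZB lie to the right of every ligand and receptor, and LGR5, RNF43 and RSPO1 lie farthest left.

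Among the ligands, WNT4 was low in estrus. WNT4 (ENSBTAG00000051083) had 21.6, 57.0 and 30.8 CPM in anestrus, 15.8, 7.74 and 13.0 CPM in estrus, and 22.8, 30.7 and 45.3 CPM in pregnancy. All 3 estrus libraries lay below all 6 others, while the anestrus and pregnancy libraries overlapped. Its mean was 12.2 ± 4.09 CPM in estrus, against 36.5 ± 18.3 CPM in anestrus (SD, n = 3 each). The log2 fold change was -1.59 ± 0.41 (SE). In pregnancy the mean was 32.9 ± 11.4 CPM, which gave a log2 fold change of 1.42 ± 0.42 over estrus. These comparisons use the same 3 estrus libraries. Neither passed the test over all genes: edgeR's quasi-likelihood test gave an unadjusted p of 0.00275 and an adjusted p of 0.704 for estrus versus anestrus, and 0.00633 and 0.656 for pregnancy versus estrus. Without anestrus replicate 2, the highest of the 9 libraries, the log2 fold change of estrus over anestrus was -1.12. Granulosa markers, for the cells that carry Wnt4 in mouse follicles, summed to 3508, 3249 and 1095 CPM in estrus, against 2106, 1351 and 1198 CPM in anestrus. Estrus held the highest and, in replicate 3, the lowest of these sums. In anestrus replicate 2, the library highest in WNT4, GJA1 alone had 1151 of the 1351 CPM. There INHA had 142, FOXL2 30.4, INHBB 19.6, AMH 4.03, HSD17B1 2.57, FSHR 0.909 and CYP19A1 0.711 CPM. The part of granulosa cells in the WNT4 values was not tested. Stromal markers summed to 64868, 75791 and 90771 CPM in estrus, against 91273, 92250 and 54591 CPM in anestrus, and overlapped between these stages.

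Some single markers of other cells were low in the estrus libraries, while other markers from the same lists were not. The 5 markers of B and plasma cells summed to 115, 66.5 and 13.2 CPM in estrus, against 204, 99.9 and 163 CPM in anestrus, and to 89.5, 77.0 and 217 CPM in pregnancy, with overlap. Of these, MZB1 had 14.7, 12.3 and 2.53 CPM in estrus, below all of its values in anestrus (57.8, 25.6 and 34.7 CPM) and pregnancy (21.8, 21.7 and 26.8 CPM), and POU2AF1 was at 0 in estrus replicates 1 and 3. The 8 markers of surface and oviduct epithelium summed to 198, 453 and 166 CPM in estrus, against 278, 281 and 223 CPM in anestrus, and overlapped. Among them OVGP1, an oviduct glycoprotein, had 5.17, 0 and 1.52 CPM in estrus, against 53.8, 77.7 and 18.4 CPM in anestrus, but was also low in pregnancy at 3.08, 6.70 and 5.96 CPM. CD79A, from the list of B and plasma cells, had 8.45, 5.13 and 1.86 CPM in estrus, against 7.08, 4.11 and 5.97 CPM in anestrus. KRT8 and KRT18, from the epithelium list, were highest in estrus replicate 2, at 282 and 134 CPM. All of these single markers were picked out after their values were seen, and the part of any of these cells in the WNT4 values was not tested.

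WNT5A, a ligand best known for beta-catenin-independent signalling through ROR receptors, was the ligand with the highest FPKM. WNT5A (ENSBTAG00000020221) had 12.4, 31.0 and 21.8 CPM in anestrus, 29.9, 32.3 and 25.6 CPM in estrus, and 39.6, 45.5 and 26.8 CPM in pregnancy. The lowest libraries were in anestrus and the highest in pregnancy, and the stages overlapped. Pregnancy averaged 37.3 ± 9.54 CPM, against 21.7 ± 9.29 CPM in anestrus, a log2 fold change of 0.79 ± 0.32 (unadjusted p = 0.0332, adjusted p = 0.718), and 0.51 without anestrus replicate 1. With log2 library size as a covariate it was 1.44.

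As a share of the summed ligand FPKM, WNT4 made up 25.1, 35.0 and 26.7% in anestrus, 13.7, 7.88 and 13.8% in estrus, and 16.6, 16.9 and 30.7% in pregnancy. WNT5A made up 21.9, 29.1 and 28.7% in anestrus, 39.4, 50.3 and 41.6% in estrus, and 43.8, 38.3 and 27.7% in pregnancy. WNT5A over WNT4 in FPKM was accordingly 2.88, 6.38 and 3.01 in estrus, against 0.874, 0.830 and 1.08 in anestrus, and in pregnancy it was 2.65, 2.26 and 0.902. Every estrus library was above every library of the other stages in this ratio, which was picked after the values were seen and has no test. The length behind the FPKM of WNT4 is 1787 bases and those of the other 7 ligands run between 932 and 1214 bases. This sets the level of WNT4 relative to the other ligands by the same factor in every library.

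**Figure D2:**
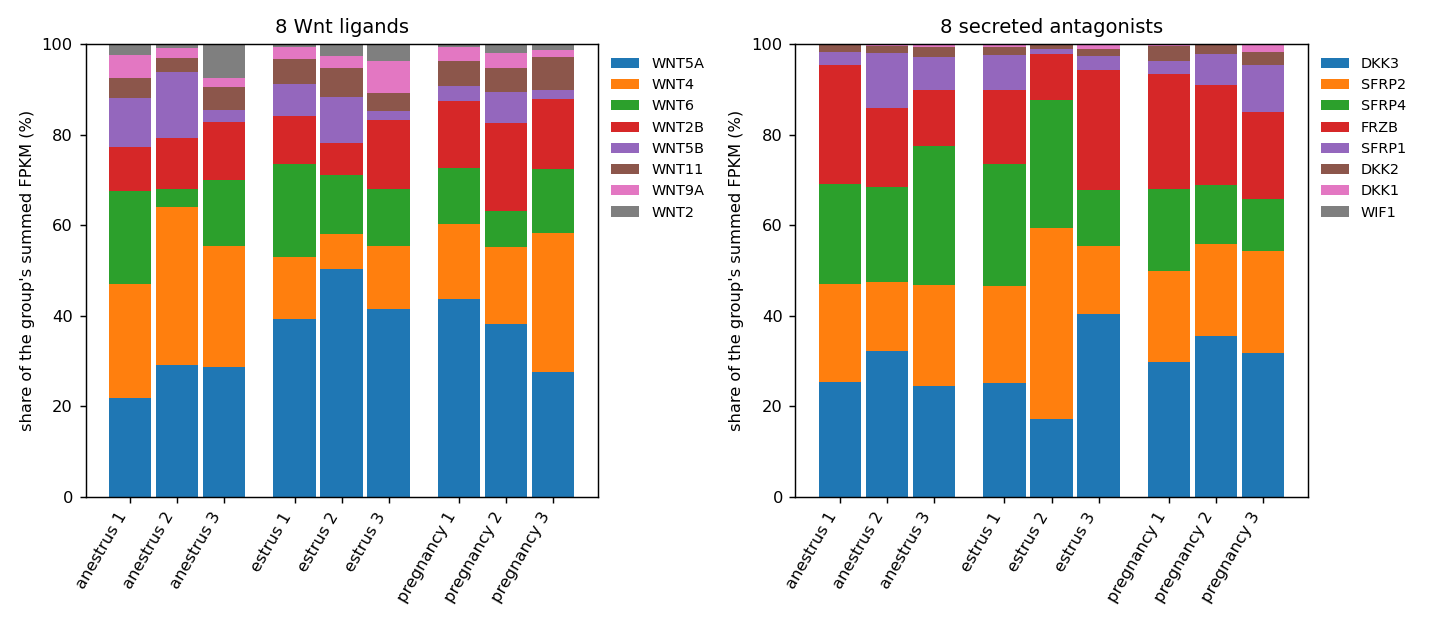
Share (%) of each gene in the summed FPKM of the 8 ligands (left) and the 8 secreted antagonists (right), 1 bar per library. WNT4 takes 7.88 to 13.8% in the 3 estrus libraries and 25.1 to 35.0% in anestrus, and SFRP2 takes 42.1% of the antagonists in estrus replicate 2.

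WNT2B and WNT11 were highest in pregnancy. WNT2B (ENSBTAG00000014291), a ligand of the beta-catenin route, had 5.69, 12.4 and 10.2 CPM in anestrus, 8.45, 4.74 and 9.78 CPM in estrus, and 13.9, 23.8 and 15.5 CPM in pregnancy. Each pregnancy library was above all 6 others. The log2 fold change was 1.23 ± 0.39 in pregnancy over estrus (unadjusted p = 0.00982, adjusted p = 0.656) and 0.91 ± 0.38 in pregnancy over anestrus (unadjusted p = 0.036, adjusted p = 0.718), and these comparisons share the pregnancy libraries. WNT11 (ENSBTAG00000010820), which acts largely outside the beta-catenin route, had 2.32, 3.00 and 3.55 CPM in anestrus, 3.91, 3.97 and 2.36 CPM in estrus, and 4.67, 5.89 and 6.56 CPM in pregnancy. Again the 3 pregnancy libraries were the highest, though the value of pregnancy replicate 3 rests on 11 counts. Its mean was 5.71 ± 0.96 CPM in pregnancy, against 2.96 ± 0.62 CPM in anestrus, a log2 fold change of 0.93 ± 0.39 (unadjusted p = 0.0376, adjusted p = 0.718).

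The other 4 ligands had no difference at an unadjusted p under 0.05. WNT6 had 11.3, 4.03 and 10.5 CPM in anestrus, 14.9, 8.03 and 7.42 CPM in estrus, and 10.6, 9.14 and 13.1 CPM in pregnancy. WNT5B differed most among libraries of 1 stage, with 14.6 CPM in anestrus replicate 2 and 1.77 CPM in anestrus replicate 3. WNT9A and WNT2 were low throughout, at 1.19 to 3.54 CPM and 0.47 to 5.32 CPM over the 9 libraries. In pregnancy replicate 3, WNT9A and WNT2 had 2 counts each and WNT5B had 3, at or below the floor, so their levels there were not resolved. The lowest WNT2 value, 0.47 CPM in estrus replicate 1, rests on 3 counts and is also at the floor.

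**Figure D3:**
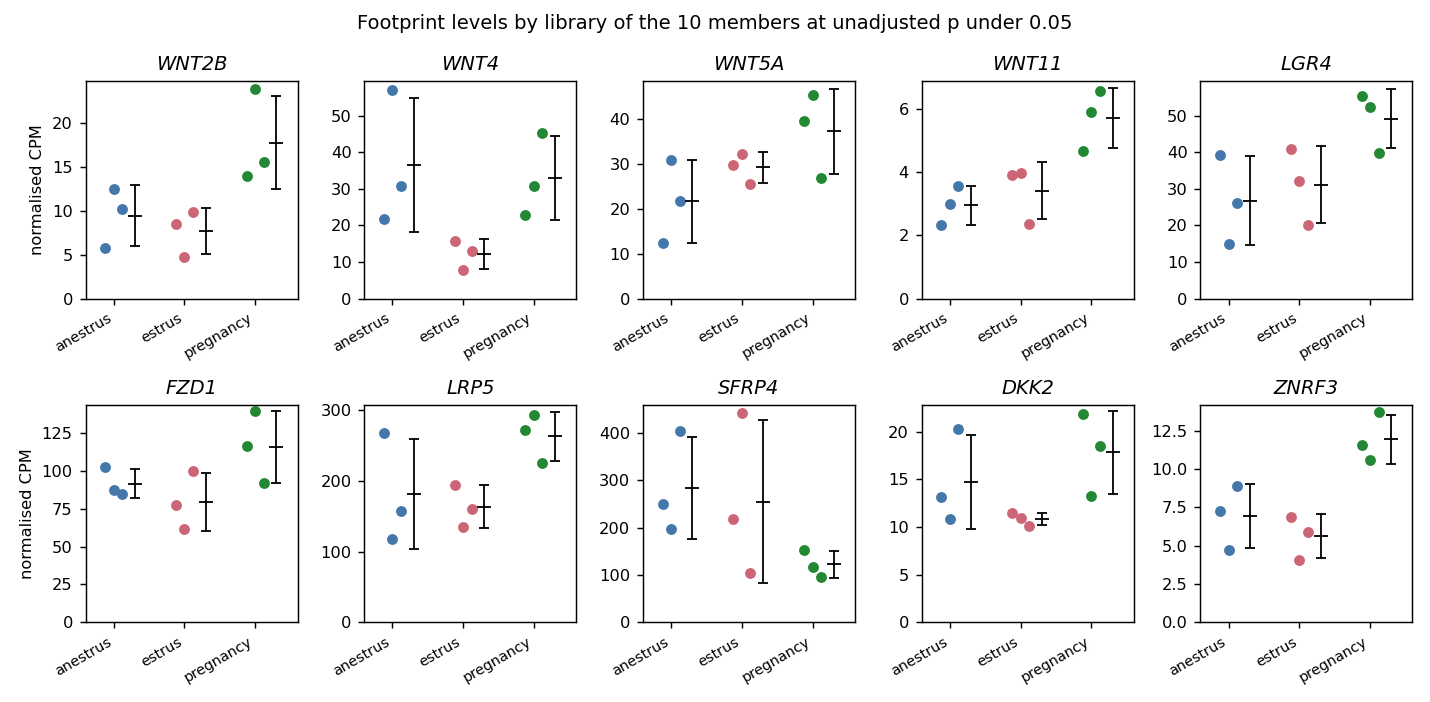
Normalised CPM in each library (points) with the mean and SD of each stage (bars, n = 3) for the 10 genes with an unadjusted p under 0.05 in any test. WNT4 is lowest in the 3 estrus libraries, and WNT2B, WNT11 and ZNRF3 are highest in the 3 pregnancy libraries. Of SFRP4, the pregnancy libraries lie below the anestrus libraries.

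RSPO3 made up most of the R-spondin footprints, and LGR4 was the most abundant of the LGR receptors listed. RSPO3 (ENSBTAG00000008121) had 54.4, 51.4 and 33.9 CPM in anestrus, 23.6, 22.5 and 50.8 CPM in estrus, and 28.3, 25.2 and 59.6 CPM in pregnancy, and replicate 3 was the highest library of estrus and of pregnancy. LGR4 (ENSBTAG00000002606) had 39.3, 15.0 and 26.2 CPM in anestrus, 41.0, 32.2 and 20.1 CPM in estrus, and 55.3, 52.4 and 39.9 CPM in pregnancy. All pregnancy libraries of LGR4 were above all anestrus libraries, with a log2 fold change of 0.89 ± 0.36 (unadjusted p = 0.0316, adjusted p = 0.718), which was 0.59 without anestrus replicate 2. RSPO1, the R-spondin of fetal ovary development in the mouse, had 0 to 7 counts per library, and 0 counts in 4 of 9 libraries. LGR5, a receptor and Wnt target gene that marks stem cells in several tissues, had 0 to 15 counts. With the floor of 3 counts per library, their stage levels were not resolved at this depth.

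Of the 8 frizzled receptors, FZD7, FZD1 and FZD4 had the highest FPKM, at 58.0, 48.9 and 37.5 on average over the 9 libraries. FZD1 had 103, 87.5 and 84.8 CPM in anestrus, 77.7, 61.4 and 99.8 CPM in estrus, and 117, 140 and 91.8 CPM in pregnancy. Pregnancy replicate 3 lay within the range of estrus, and the log2 fold change of pregnancy over estrus was 0.55 ± 0.23 (unadjusted p = 0.039, adjusted p = 0.656). FZD7 had 109, 162 and 94.8 CPM in anestrus, 79.1, 73.2 and 141 CPM in estrus, and 71.6, 83.1 and 107 CPM in pregnancy. The stages overlapped for FZD7 as for the remaining receptors. FZD2, FZD3, FZD6 and FZD8 had 18.5 to 45.9, 28.2 to 73.9, 19.1 to 37.8 and 13.0 to 32.7 CPM over the 9 libraries, and FZD5 was the lowest with 2.45 to 10.2 CPM. The median log2 fold change of the 8 was 0.11 for estrus over anestrus, -0.03 for pregnancy over estrus and 0.16 for pregnancy over anestrus.

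LRP5 and LRP6, the co-receptors of the beta-catenin route, had similar FPKM, at 42.3 and 53.4 over the 9 libraries. LRP5 had 268, 118 and 158 CPM in anestrus, 195, 135 and 161 CPM in estrus, and 272, 293 and 225 CPM in pregnancy. The pregnancy libraries were all above the estrus libraries, with means of 263 ± 34.9 CPM in pregnancy and 163 ± 30.3 CPM in estrus. The log2 fold change was 0.69 ± 0.30 (unadjusted p = 0.0417, adjusted p = 0.657). LRP6 had 351, 311 and 199 CPM in anestrus, 242, 138 and 280 CPM in estrus, and 250, 205 and 354 CPM in pregnancy, with overlap throughout. ROR1, a receptor tyrosine kinase that binds WNT5A, had 43.1, 33.9 and 49.5 CPM in pregnancy, against 52.2, 50.1 and 50.2 CPM in anestrus. All 3 pregnancy values lay below those of anestrus, by little in replicate 3, and the log2 fold change was -0.28 ± 0.25 (unadjusted p = 0.295, adjusted p = 0.791). ROR2 had 38.3 to 74.8 CPM over the 9 libraries.

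SFRP4 was the antagonist with the lowest log2 fold change in pregnancy. In the mouse ovary this soluble frizzled-like protein is found in granulosa cells near ovulation and in corpora lutea. SFRP4 (ENSBTAG00000015366) had 250, 196 and 405 CPM in anestrus, 219, 442 and 105 CPM in estrus, and 153, 117 and 96.6 CPM in pregnancy. The pregnancy libraries were all below the anestrus libraries, while estrus replicate 3 was as low as pregnancy. Pregnancy averaged 122 ± 28.5 CPM, against 284 ± 109 CPM in anestrus, a log2 fold change of -1.21 ± 0.46 (unadjusted p = 0.0254, adjusted p = 0.718). Against estrus, with 255 ± 172 CPM, the log2 fold change of pregnancy was -1.06 ± 0.46 (unadjusted p = 0.0443, adjusted p = 0.662), and -0.40 without estrus replicate 2. With log2 library size as a covariate, the value against anestrus was -0.78.

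Summed markers of steroid cells were higher and those of stroma lower in most, not all, pregnancy libraries than in anestrus. Theca and luteal markers (all 6 listed genes found, none at 0) summed to 3351, 5778 and 1182 CPM in pregnancy, against 628, 428 and 1831 CPM in anestrus, and overlapped through replicate 3 of each. In anestrus replicate 3, CYP17A1 had 915 and INSL3 514 CPM. STAR had 58.4, 106 and 64.4 CPM in pregnancy, above 14.8, 57.9 and 14.3 CPM in anestrus. HSD3B1 had 161, 283 and 108 CPM, above 34.6, 51.3 and 72.5 CPM. CYP11A1, CYP17A1, LHCGR and INSL3 overlapped between these stages. Stromal markers summed to 53561, 62316 and 44970 CPM in pregnancy, against 91273, 92250 and 54591 CPM in anestrus, with pregnancy replicate 2 above anestrus replicate 3. Of the stromal list, COL1A1 averaged 26428 CPM in pregnancy and 42525 CPM in anestrus, and COL1A2 17274 and 25281 CPM. DCN averaged 4029 and 5105 CPM and LUM 1569 and 2185 CPM, in the same order. PDGFRA was level at 4057 and 4050 CPM, and TCF21 had 65.9 and 71.1 CPM. NR2F2 was higher in pregnancy, at 193 CPM against 155 CPM. The part of steroid and stromal cells in the SFRP4 values was not tested.

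SFRP2 set a single library apart. It had 207, 121 and 249 CPM in anestrus, 147, 561 and 108 CPM in estrus, and 146, 157 and 159 CPM in pregnancy. Estrus replicate 2 was well above every other library, and its SFRP2 made up 42.1% of the antagonist FPKM. DKK3 was steadier, with 290, 305 and 324 CPM in anestrus, 207, 272 and 342 CPM in estrus, and 252, 324 and 265 CPM in pregnancy, and its stages overlapped. FRZB, also called SFRP3, had 125 to 279 CPM over the 9 libraries. SFRP1 had 27.2, 103 and 85.3 CPM in anestrus, 54.8, 16.9 and 23.4 CPM in estrus, and 20.3, 55.9 and 76.9 CPM in pregnancy, and its stages overlapped. The log2 fold change of SFRP1 in estrus over anestrus was -1.18 ± 0.60 (edgeR, unadjusted p = 0.0759, adjusted p = 0.718).

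DKK2, which binds LRP co-receptors, had 13.1, 10.8 and 20.2 CPM in anestrus, 11.4, 10.9 and 10.1 CPM in estrus, and 21.9, 13.2 and 18.5 CPM in pregnancy. The estrus values lay close together and below all pregnancy values, while 1 anestrus library was within their range. The log2 fold change of pregnancy over estrus was 0.72 ± 0.30 (unadjusted p = 0.0348, adjusted p = 0.656). DKK1, the best known inhibitor of LRP6, was low, at 1.36 to 10.7 CPM, and its highest library in each stage was replicate 3. WIF1, which binds Wnt ligands, had at most 1.61 CPM and was at 0 in estrus replicate 2 and pregnancy replicate 3.

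CTNNB1, beta-catenin itself, had 547, 714 and 622 CPM in anestrus, 661, 1163 and 588 CPM in estrus, and 565, 659 and 417 CPM in pregnancy. Estrus replicate 2 was the highest of the 9 libraries, and the other 8 overlapped across stages. GSK3B, a kinase of the complex that degrades beta-catenin, had 49.2, 46.1 and 39.2 CPM in anestrus, 43.5, 37.9 and 46.5 CPM in estrus, and 56.7, 49.4 and 39.9 CPM in pregnancy. It was among the steadiest genes of the group. The scaffolds APC and AXIN1 had 19.2 to 34.6 and 10.3 to 17.9 CPM over the 9 libraries. Of the Dishevelled genes, DVL3 was the most abundant at 59.6 to 96.0 CPM. Its pregnancy libraries, at 78.2, 80.9 and 96.0 CPM, lay narrowly above all 6 others, with a log2 fold change of 0.16 ± 0.18 over estrus and 0.28 ± 0.18 over anestrus, neither at an unadjusted p under 0.05.

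In the nucleus, TCF7L2 carried most of the footprints of the 4 TCF and LEF genes, with 66.0% of their summed FPKM in anestrus, 65.3% in estrus and 65.3% in pregnancy. TCF7L2 had 42.3, 28.3 and 43.5 CPM in anestrus, 41.3, 36.5 and 51.6 CPM in estrus, and 41.5, 45.1 and 39.9 CPM in pregnancy, which overlapped. TCF7 had 8.01, 5.41 and 6.61 CPM in anestrus, 11.7, 17.3 and 4.89 CPM in estrus, and 8.28, 7.52 and 11.3 CPM in pregnancy, and estrus held both its highest and its lowest library. TCF7L1 and LEF1 had 4.67 to 8.81 and 1.22 to 8.35 CPM.

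Among the feedback genes, ZNRF3 was highest in pregnancy. This ubiquitin ligase clears frizzled receptors from the cell surface and is itself a Wnt target. ZNRF3 had 7.28, 4.70 and 8.87 CPM in anestrus, 6.89, 4.07 and 5.90 CPM in estrus, and 11.6, 10.6 and 13.7 CPM in pregnancy, and each pregnancy library was above all 6 others. The log2 fold change was 1.08 ± 0.34 over estrus (unadjusted p = 0.00903, adjusted p = 0.656) and 0.77 ± 0.33 over anestrus (unadjusted p = 0.0399, adjusted p = 0.718). Every pregnancy library was shallower than every anestrus library, and with log2 library size as a covariate the log2 fold change over anestrus was 0.24. Its partner RNF43 had 0 to 22 counts per library and was not tested.

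AXIN2 and NKD1 are widely used readouts of beta-catenin signalling. AXIN2 had 4.44, 5.41 and 7.50 CPM in anestrus, 4.70, 2.13 and 5.90 CPM in estrus, and 4.99, 7.72 and 8.94 CPM in pregnancy. NKD1 had 25.1, 20.9 and 19.8 CPM in anestrus, 11.1, 5.42 and 23.6 CPM in estrus, and 13.6, 9.14 and 20.3 CPM in pregnancy. Estrus replicate 2 was the lowest of the 9 libraries for both, and neither gene had an unadjusted p under 0.05 in any comparison. NKD2, which like NKD1 binds Dishevelled, had 12.0, 3.48 and 11.6 CPM in anestrus, 10.5, 4.84 and 9.95 CPM in estrus, and 11.5, 8.53 and 19.1 CPM in pregnancy. PORCN, the enzyme that adds the lipid to Wnt ligands, had 6.64 to 18.2 CPM over the 9 libraries.

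Estrus replicate 2 held the lowest value of 14 of the 46 tested genes and the highest of 5, namely SFRP2, SFRP4, CTNNB1, DVL2 and TCF7. Pregnancy replicate 3, the shallowest library, held the highest value of 12 and the lowest of 4. Such counts were not made over all genes, so whether they are particular to these genes is not known.

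**Figure D4:**
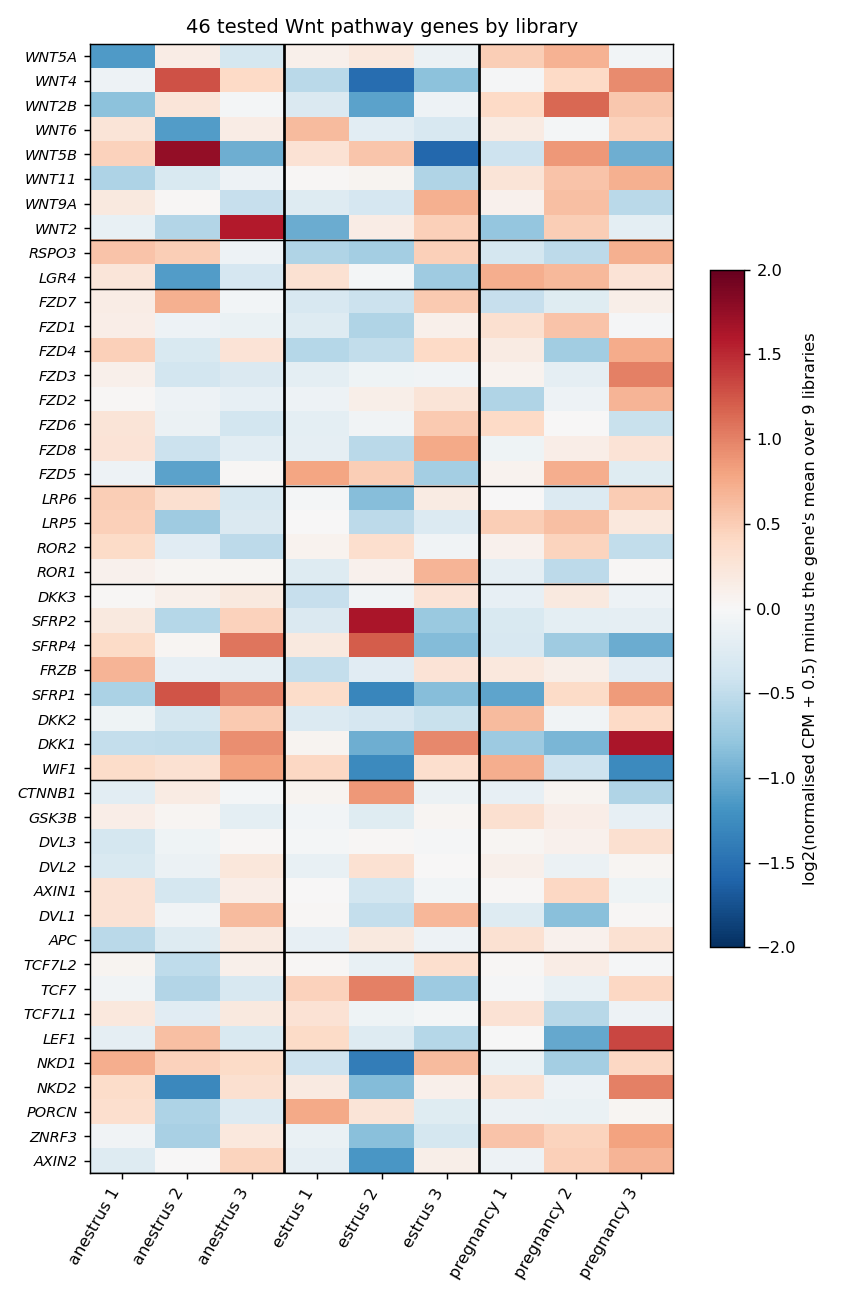
Log2 of normalised CPM plus 0.5, centred on each gene's 9-library mean, for the 46 tested genes (rows, by role) in each library (columns). The column of estrus replicate 2 is high for SFRP2, SFRP4, CTNNB1 and TCF7 and low for WNT4, NKD1 and AXIN2, and the row of WNT4 is low in all 3 estrus columns.

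The 46 genes were set beside all tested genes, first for estrus versus anestrus. No gene of 13936 passed edgeR's test at an adjusted p under 0.05 in any of the 3 comparisons or among the 3 stages, and so none of the 46, with a smallest adjusted p of 0.704 in estrus versus anestrus. DESeq2 and limma-voom called none of the 46 either. At an unadjusted p under 0.05 there was 1 of 46 in estrus versus anestrus (2.17%), WNT4, against 981 of 13936 genes (7.04%, of which 2.91% higher and 4.13% lower in estrus). Leaving out estrus replicate 3 brought 6 of the 46 under that p. The count thus depends on the libraries, and a low count does not show that the genes were alike in both stages. The median log2 fold change was -0.09 over the 46 genes and -0.006 over all tested genes. WNT4 was the 1 gene of the 46 with every estrus library below all anestrus libraries, a property of 6.42% of all tested genes, and none had every estrus library above, against 5.22% of all.

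In pregnancy versus estrus, 29 of the 46 genes (63%) had a positive and 17 a negative log2 fold change. Of all tested genes, 50.6% had a positive one. The median was 0.13, against 0.006 over all tested genes. At an unadjusted p under 0.05 there were 7 of 46 (15.2%), against 1035 of 13936 genes (7.43%). The 6 with higher values in pregnancy (4.23% of all genes) were WNT4, WNT2B, ZNRF3, DKK2, FZD1 and LRP5, and the 1 with lower values (3.19% of all) was SFRP4. Without estrus replicate 2 the count was 3 of 46. Every pregnancy library lay above every estrus library for 7 genes (7.05% of all genes), WNT2B, WNT4, WNT11, LRP5, DKK2, DVL3 and ZNRF3, and below for none (6.59% of all).

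In pregnancy versus anestrus, 28 of the 46 (60.9%) had a positive and 18 a negative log2 fold change. Of all tested genes, 50.1% had a positive one. The median was 0.13, against 0.001 over all tested genes. The median was 0.03 without pregnancy replicate 3 and -0.02 without it and anestrus replicate 2. At an unadjusted p under 0.05 there were 6 of 46 (13%), against 951 of 13936 genes (6.82%). The 5 with higher values in pregnancy (3.2% of all genes) were LGR4, WNT5A, WNT2B, WNT11 and ZNRF3, and the 1 with lower values (3.62% of all) was SFRP4. The count was 1 without pregnancy replicate 2 and 3 without any one of anestrus replicates 1 to 3 or of pregnancy replicates 1 and 3. Every pregnancy library lay above every anestrus library for WNT2B, WNT11, LGR4, DVL3 and ZNRF3 (5.88% of all genes) and below for ROR1 and SFRP4 (6.91% of all). The comparisons share libraries, so their counts are not independent of each other.

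**Figure D5:**
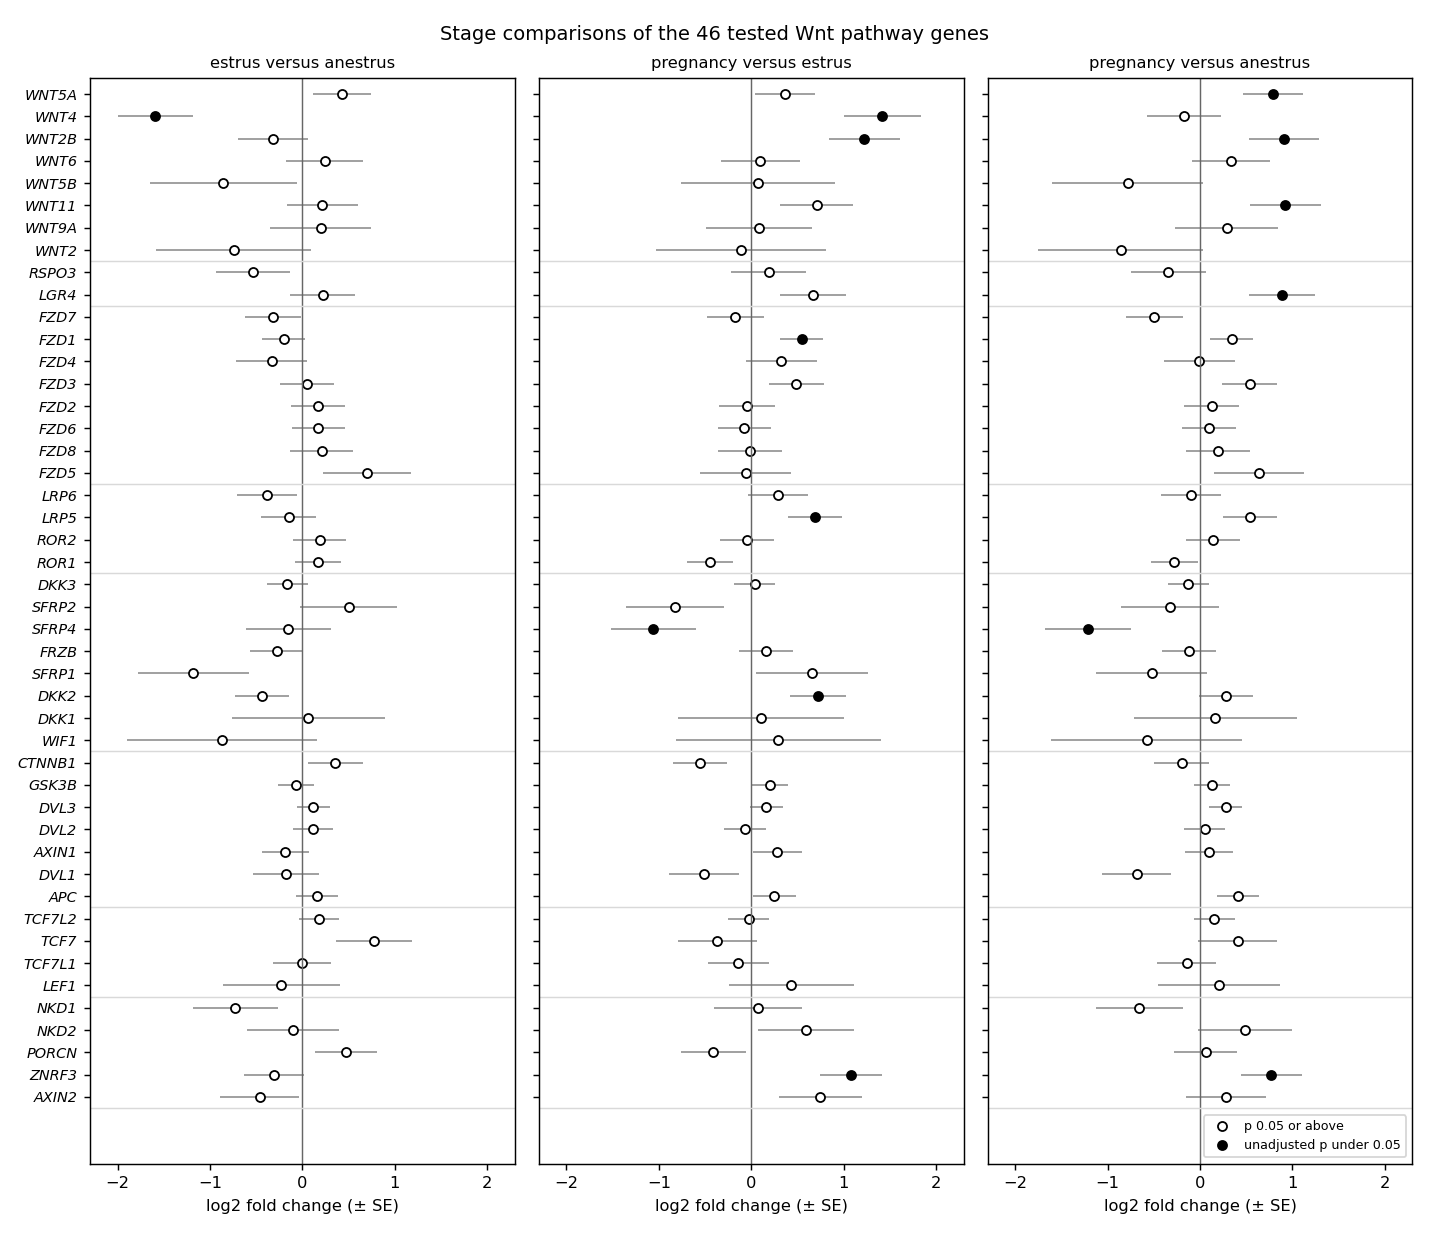
Log2 fold change with its SE (edgeR) of the 46 tested genes in the 3 comparisons, filled where the unadjusted p was under 0.05. WNT4 stands alone at -1.59 in estrus versus anestrus, and the filled points number 7 for pregnancy over estrus and 6 for pregnancy over anestrus.

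By role, the ligands had a median log2 fold change of -0.06 for estrus over anestrus, 0.23 for pregnancy over estrus and 0.31 for pregnancy over anestrus. The antagonists had -0.22, 0.13 and -0.22 in the same comparisons. The 5 tested feedback and secretion genes had -0.31, 0.59 and 0.28, and the cytoplasmic genes 0.12, 0.16 and 0.10. These medians rest on few genes each and have no test.

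In a test of any difference among the 3 stages, 3 of the 46 (6.52%) had an unadjusted p under 0.05, against 998 of 13936 genes (7.16%). In edgeR's quasi-likelihood test they were WNT4 (unadjusted p = 0.00711, adjusted p = 0.693), WNT2B (unadjusted p = 0.0212, adjusted p = 0.693) and ZNRF3 (unadjusted p = 0.0214, adjusted p = 0.693). Every estrus library was below all 6 others for 1 of the 46, WNT4, against 2.2% of all genes, and above them for none, against 1.38% of all.

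The authors' deposited table, whose test is not stated, called 31 genes in estrus versus anestrus at a false discovery rate under 0.05, 23 in pregnancy over estrus and 36 in pregnancy over anestrus. None of the 49 was among them. The smallest false discovery rates of these genes in the authors' deposited table were, in the same order of comparisons, 0.102 for WNT4, 0.138 for WNT4 and 0.0783 for SFRP4.

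Of 72 other Wnt genes listed, 70 were found and 50 were tested. WNT3, WNT3A, WNT8A, WNT8B, DKK4 and KREMEN2 had no count in any library, and 14 more, among them WNT1, WNT7A, RSPO2, RSPO4, LGR6 and FZD10, had 54 counts or fewer over all 9 libraries. In estrus versus anestrus, 36 of the 50 had a negative log2 fold change and 28% a positive one, against 49.2% positive among all tested genes. The median was -0.22, against -0.006 over all tested genes. For the 50 it was -0.08 without estrus replicate 2 and -0.11 without anestrus replicate 3. In pregnancy versus estrus, 38 of the 50 (76%) had a positive log2 fold change, against 50.6% of all tested genes. The median was 0.19, against 0.006 over all tested genes, and this comparison shares the estrus libraries. In pregnancy versus anestrus, the 50 split into 26 positive (52%, against 50.1% of all tested genes) and 24 negative. The median was 0.03, against 0.001 over all tested genes.

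None of the 50 passed edgeR's test, and 6 (12%) had an unadjusted p under 0.05 when estrus was set against anestrus, beside 7.04% of all tested genes. There were 4 (8%) for pregnancy against estrus, beside 7.43% of all, and 2 (4%) for pregnancy against anestrus, beside 6.82% of all. TLE3, a co-repressor that TCF factors recruit, had 18.3, 18.9 and 21.9 CPM in estrus, against 26.9, 36.5 and 34.1 CPM in anestrus. In pregnancy TLE3 had 27.4, 35.4 and 28.6 CPM, so its estrus libraries were below all 6 others. The log2 fold change was -0.72 ± 0.21 for estrus over anestrus (unadjusted p = 0.00523, adjusted p = 0.704) and 0.63 ± 0.21 for pregnancy over estrus (unadjusted p = 0.0126, adjusted p = 0.656). GSK3A, the sister kinase of GSK3B, was also lowest in estrus, with 44.7, 42.0 and 41.5 CPM in anestrus, 35.2, 29.1 and 32.0 CPM in estrus, and 41.1, 45.9 and 53.1 CPM in pregnancy. Its log2 fold change of pregnancy over estrus was 0.53 ± 0.18 (unadjusted p = 0.0139, adjusted p = 0.656). In all, 5 of the 50 had every estrus library below all others, against 306 of 13936 genes (2.2%). They were TLE3, GSK3A, KREMEN1, FBXW11 and TNKS2, of which the last 3 were picked out after their values were seen.

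PYGO1, a beta-catenin co-factor, had 12.7, 15.4 and 14.5 CPM in estrus, against 22.0, 21.2 and 22.1 CPM in anestrus, with no overlap (log2 fold change -0.61 ± 0.20, unadjusted p = 0.0121, adjusted p = 0.704). MYC, a growth gene and Wnt target in several tissues, had 73.9, 113 and 89.0 CPM in estrus, against 151, 176 and 124 CPM in anestrus, also with no overlap (log2 fold change -0.71 ± 0.29, unadjusted p = 0.0322, adjusted p = 0.704). With log2 library size as a covariate, the MYC value was -0.19. WNT16, a ligand outside the 49, had 5.94, 13.0 and 17.3 CPM in pregnancy, against 6.26, 5.32 and 3.88 CPM in estrus. Pregnancy replicate 1 overlapped the estrus libraries, and the log2 fold change was 1.17 ± 0.41 (unadjusted p = 0.0166, adjusted p = 0.656), and 0.48 in limma-voom.

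GPC3, a cell-surface proteoglycan that can bind Wnt ligands, had 476, 887 and 231 CPM in pregnancy, against 149, 123 and 281 CPM in anestrus. The stages overlapped through replicate 3 of each, with a log2 fold change of 1.53 ± 0.48 (unadjusted p = 0.00922, adjusted p = 0.718), and 0.93 without pregnancy replicate 2. CCND1, cyclin D1, another Wnt target in several tissues, had 9.23, 9.75 and 8.35 CPM in pregnancy, against 14.5, 19.4 and 12.6 CPM in anestrus, with no overlap. Its log2 fold change was -0.76 ± 0.31 (unadjusted p = 0.032, adjusted p = 0.718). Cell cycle markers summed to 317, 331 and 180 CPM in pregnancy, against 320, 525 and 314 CPM in anestrus, and their part in the CCND1 values was not tested.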

How the data were processed

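Ribosome footprints of 9 yak ovary libraries (3 per stage) were quantified by the authors with Bowtie2 and RSEM, per the submitters' processing notes; the sources used here give neither versions nor a genome build. The deposited tables hold whole-number counts per gene, which did not differ between tables (0 values), and FPKM, which the authors made from counts and gene length (96.8% of values lay within 5% of those recomputed). For each comparison, the authors deposited a log2 fold change, a p-value and a false discovery rate per gene, and their test is not stated. Gene identifiers are cattle Ensembl identifiers, so no coordinate or sequence was used here.

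The counts were tested with edgeR 4.0.16 (R 4.3.3) in 1 fit of all 9 libraries on stage: filterByExpr kept 13936 genes with 99.9% of the counts, TMM factors ran from 0.876 to 1.144, and quasi-likelihood F tests were adjusted by Benjamini-Hochberg over all tested genes, with a call at an adjusted p under 0.05. The biological coefficient of variation was 34.5%. The procedure was tested on counts simulated from the fit's own means and dispersions, which cannot check whether the real libraries follow them. Levels are CPM scaled by TMM, with the SD over 3 libraries, and SEs come from the fit. The unadjusted p under 0.05 is used to say which genes are described and to count genes beside the share of all genes, not to call a gene. The labels call the replicates biological but do not tie samples to animals. A p-value here therefore measures only the spread between samples, which may not be the spread between animals. Intervals for counting error were not used, and the floor of 3 counts covers counting error only. Libraries of a stage differed beyond sampling noise (chi-square over its degrees of freedom at least 14.6).

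Values in every library were given for genes with an unadjusted p under 0.05 in any of the 4 tests and for the 2 genes with the highest mean FPKM in each role; for the other Wnt genes, up to 3 with the smallest unadjusted p under 0.05 in a comparison were named. Members and lists were chosen with earlier results of these data known. Alternatives were DESeq2 1.42.0, limma-voom (limma 3.58.1), other scalings and filters, 6-library fits, a replicate block, log2 library size as a covariate, summed identifiers, the authors' table and leaving libraries out. The counts at an unadjusted p, the medians of the other Wnt genes under these alternatives and sums of FPKM divided by TMM factors were added after seeing the data. No RNA-seq was matched, so mRNA amount and translation are not separated.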

Additional observations from a re-analysis of the deposited data

How the results depend on the processing

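None of the 46 tested genes was called in any alternative run. The 22 log2 fold changes of genes named for an unadjusted p under 0.05 kept their direction in 484 of 484 repeats. These 22 were picked by that p in the main fit, and the repeats reuse its libraries. Their kept direction is therefore no independent support. Over all genes, where edgeR called 0 in each comparison, DESeq2 called 15 genes when estrus was set against anestrus, 29 for pregnancy against estrus, 28 for pregnancy against anestrus and 56 among the 3 stages, and the authors' deposited table called 31, 23 and 36 in the 3 comparisons. The cause was not tested. Leaving out 1 library gave 0 to 2 calls for estrus against anestrus (2 without estrus replicate 3), 0 to 1 in pregnancy versus estrus (1 without pregnancy replicate 3), 0 in pregnancy versus anestrus and 0 to 1 among the 3 stages (1 without estrus replicate 3).

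Of the 46, the number at an unadjusted p under 0.05 in estrus versus anestrus was 1, against 2 with DESeq2, 4 with limma-voom, 6 with log2 library size as a covariate, 2 in the authors' deposited table, 2 without anestrus replicate 2 and pregnancy replicate 3, and 1 to 6 with 1 library left out. In pregnancy versus estrus it was 7, against 4 with the covariate and 3 to 8 with 1 library left out. In pregnancy versus anestrus it was 6, against 3 with the covariate, 3 without those 2 libraries and 1 to 6 with 1 left out. Among the 3 stages it was 3, against 10 with limma-voom, 5 with library size alone and 2 to 7 with 1 left out. With the replicate number as a block it was 2 in estrus versus anestrus and 5 among the 3 stages. Deviations from the stage means correlated at -0.03 to 0.26 between same-numbered libraries (median 0.13, over 0.1 in 5 of 9 pairs) and at -0.27 to 0.14 between others (median -0.05, over 0.1 in 3 of 18). The labels state no pairing and not every same-numbered pair was over 0.1, so the numbers were not used to pair samples, and a shared origin was not tested.

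The median log2 fold change of the 46 ranged from -0.14 to 0.01 in estrus versus anestrus with 1 library left out. In pregnancy versus estrus it was 0.26 with library size alone and 0.067 to 0.275 with 1 library left out (0.275 without estrus replicate 3). In pregnancy versus anestrus it was 0.013 with limma-voom, 0.26 with library size alone, -0.12 with the covariate, 0.24 in the authors' deposited table, -0.017 without anestrus replicate 2 and pregnancy replicate 3, and 0.025 to 0.191 with 1 library left out, so its sign depends on the setting. Depth limits RSPO1, LGR5, RNF43, WIF1, WNT2, WNT9A and WNT5B, with 0 to 3 counts in pregnancy replicate 3, and to a lesser degree FZD5, TCF7L1 and WNT11, with 8, 11 and 11.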
